A study of Homo sapiens with 28 samples.

Results

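NDRG1, DDIT4, BHLHE40 and ERO1A are 4 protein-coding genes known for their induction by low oxygen. They were picked by symbol, and make up 4 of the 19974 protein-coding genes placed on chromosomes 1 to 22 and X of the human build GRCh38. NDRG1 (gene ID 10397) lies at chr8:133237175-133297252 on the minus strand, DDIT4 (gene ID 54541) at chr10:72273924-72276036 on the plus strand, BHLHE40 (gene ID 8553) at chr3:4979437-4985323 on the plus strand, and ERO1A (gene ID 30001) at chr14:52639915-52695558 on the minus strand. A peak was assigned to a gene when it overlapped the gene span or the 20 kb on either side of it, here called the gene window. The windows measured 100.1 kb for NDRG1, 42.11 kb for DDIT4, 45.89 kb for BHLHE40 and 95.64 kb for ERO1A. They also reach other protein-coding genes, CCN4 in the NDRG1 window and GPR137C and PSMC6 in the ERO1A window, and the antisense genes DDIT4-AS1 and BHLHE40-AS1.

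DNA bound by a chosen protein was sequenced after immunoprecipitation of chromatin (ChIP-seq) in T47D, a human line of luminal breast cancer cells kept in culture. ZHX2 (a zinc finger and homeobox protein), CTCF (a DNA-binding protein that sits at chromatin loop anchors) and H3K27ac (acetylated lysine 27 of histone H3, a mark of active promoters and enhancers) were each mapped in hypoxia and in normoxia. In a further set, PA and WT forms of Flag-tagged ZHX2 were mapped through the tag. Both forms were studied in hypoxia, so no oxygen comparison exists for them. The labels call PA a ZHX2 mutation and do not spell out the abbreviation, and the oxygen level and the length of the hypoxia treatment are not given in the sources used here. The protocol describes lentiviral infection followed by drug selection, without naming the constructs. Each of the 8 groups held 2 samples but had 1 peak list, with no values per replicate and no read depth, so no difference below has a replicate check and none was tested. At T47D identity genes, H3K27ac peaks lay within 1 kb of the gene start of 8 of 8 luminal markers in both the hypoxia and the normoxia list. The same held for 1 of 3 basal or myoepithelial markers (ACTA2) and 0 of 1 marker of other cell types. Markers without a known start were left out of these counts. In the gene windows, both lists had H3K27ac at 10 of 10 luminal, 3 of 4 basal and 4 of 4 other markers. The window count thus does not separate the cell types.

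Cells short of oxygen stabilise the alpha subunits of the hypoxia-inducible factors (HIF), which pair with ARNT and bind DNA at a short core reading ACGTG or GCGTG. NDRG1 encodes a cytoplasmic stress-response protein linked to differentiation and to suppression of metastasis. DDIT4, also called REDD1, restrains the growth kinase complex mTORC1 through TSC1 and TSC2. BHLHE40, also called DEC1, is a basic helix-loop-helix repressor that binds the E-box CACGTG and feeds back on the circadian clock. ERO1A is the oxidase of the endoplasmic reticulum that recharges protein disulfide isomerase for disulfide bond formation.

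The 250 bases in front of the gene start are printed for DDIT4, BHLHE40 and ERO1A, to show where HIF core letters lie relative to the peaks described after them. The NDRG1 promoter was not searched for them. The sequences are from RefSeq, build GRCh38.p14, and are read 5′ to 3′ in the direction of transcription. They cover chr10:72273674-72273923 (plus strand) for DDIT4, chr3:4979187-4979436 (plus strand) for BHLHE40 and chr14:52695559-52695808 (minus strand) for ERO1A. Capitals mark ACGTG and GCGTG on the printed strand, and CACGT and CACGC, which are the same letters on the other strand.
DDIT4: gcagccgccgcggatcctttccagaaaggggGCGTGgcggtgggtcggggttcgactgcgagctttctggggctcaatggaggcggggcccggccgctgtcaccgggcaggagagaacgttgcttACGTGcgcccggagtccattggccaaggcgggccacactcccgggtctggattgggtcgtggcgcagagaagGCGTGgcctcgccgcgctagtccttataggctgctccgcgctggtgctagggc
BHLHE40: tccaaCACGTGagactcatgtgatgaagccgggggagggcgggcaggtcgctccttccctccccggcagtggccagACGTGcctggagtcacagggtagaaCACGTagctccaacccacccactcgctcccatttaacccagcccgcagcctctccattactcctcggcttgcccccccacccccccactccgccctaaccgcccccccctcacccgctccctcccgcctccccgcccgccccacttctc
ERO1A: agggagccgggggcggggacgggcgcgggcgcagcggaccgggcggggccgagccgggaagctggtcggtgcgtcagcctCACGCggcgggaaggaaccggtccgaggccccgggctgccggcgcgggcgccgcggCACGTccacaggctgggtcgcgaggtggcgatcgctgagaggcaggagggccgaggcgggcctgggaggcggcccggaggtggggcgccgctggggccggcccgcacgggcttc

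ACGTG, searched on both strands with overlapping matches counted as 1 site, occurred at 1 site in the DDIT4 promoter, 3 sites in the BHLHE40 promoter and 1 site in the ERO1A promoter. Over all 15813 promoters of this length, 20.7% held at least 1 ACGTG and 0.468% held at least 3. GCGTG occurred at 2 sites in DDIT4 and 1 site in ERO1A, and was not in the printed BHLHE40 promoter. Of all promoters, 39.1% held these letters. Counting both cores together gave 3, 3 and 2 sites in DDIT4, BHLHE40 and ERO1A, against 20.7% of all promoters with at least 2 such sites and 7.20% with at least 3. G and C made up 68.8%, 68.4% and 81.6% of the bases of these 3 promoters in that order. The other promoters were not matched for base content, and its part in the site counts was not tested. CACGTG, which contains ACGTG on both strands, stood once in the BHLHE40 promoter at 245 to 240 bases before the start and in 7.81% of all promoters. The letters CCAAT, those of the box bound by the factor NF-Y, occurred at 2 sites in DDIT4 and in 34.5% of all promoters. A match is a string of letters and not a measured binding site, and HIF was not mapped in these data.

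ZHX2 was listed at the promoters of all 4 genes in hypoxia, and at those of BHLHE40 and ERO1A in normoxia. Within 1 kb of the gene start, a ZHX2 peak stood at 4 of 4 genes in hypoxia and 2 of 4 in normoxia, where 55.3% and 27.4% of the 15814 protein-coding genes with a known start had one. A start peak in the hypoxia list alone was found for NDRG1 and DDIT4, a class that held 29.6% of all genes, and a start peak in the normoxia list alone was found for none of the 4 genes, against 1.64% of all genes. For DDIT4 this class depends on the 1 kb limit, since its normoxia peak begins 1365 bp past the start. Counted over the whole windows, the 4 genes held 15 ZHX2 peaks in hypoxia and 6 in normoxia, or 14 and 5 without the peaks at the PSMC6 start. Every gene had at least 1 window peak in both lists, as did 76.7% of all protein-coding genes in hypoxia and 51.9% in normoxia, so presence alone does not set these genes apart. The hypoxia list is also longer as a whole, with 32343 peaks against 14586 in normoxia.

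Of the 15 hypoxia peaks, 11 had no overlap of even 1 bp with a normoxia peak and are called hypoxia-only. Of the 6 normoxia peaks, 2 were normoxia-only. Over the whole lists, 72.6% of hypoxia ZHX2 peaks were hypoxia-only and 37.4% of normoxia ZHX2 peaks were normoxia-only. The counts at the 4 genes are thus near the list-wide shares. All 4 windows held a hypoxia-only ZHX2 peak, as did 66.1% of all genes, and the windows of DDIT4 and ERO1A held a normoxia-only peak, as did 22.5% of all genes. BHLHE40 had the densest ZHX2 of the 4 genes in hypoxia, at 10.9 peaks per 100 kb, a density higher than that of 93.9% of all protein-coding genes. DDIT4 had 7.12, ERO1A 4.18 and NDRG1 3 peaks per 100 kb in the same list, all above the median of 1.92 over all genes. DDIT4 and NDRG1 held 3 hypoxia peaks each, in windows of unlike length. The part of window length in these densities and ranks was not tested. In normoxia the densities were 3.14 for ERO1A, 2.37 for DDIT4, 2.18 for BHLHE40 and 0.999 for NDRG1, against a median of 0.375. The ERO1A densities rest on 4 peaks in hypoxia and 3 in normoxia, or 3 and 2 without the peak at the PSMC6 start. Its top place in normoxia depends on that peak.

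**Figure D1:**
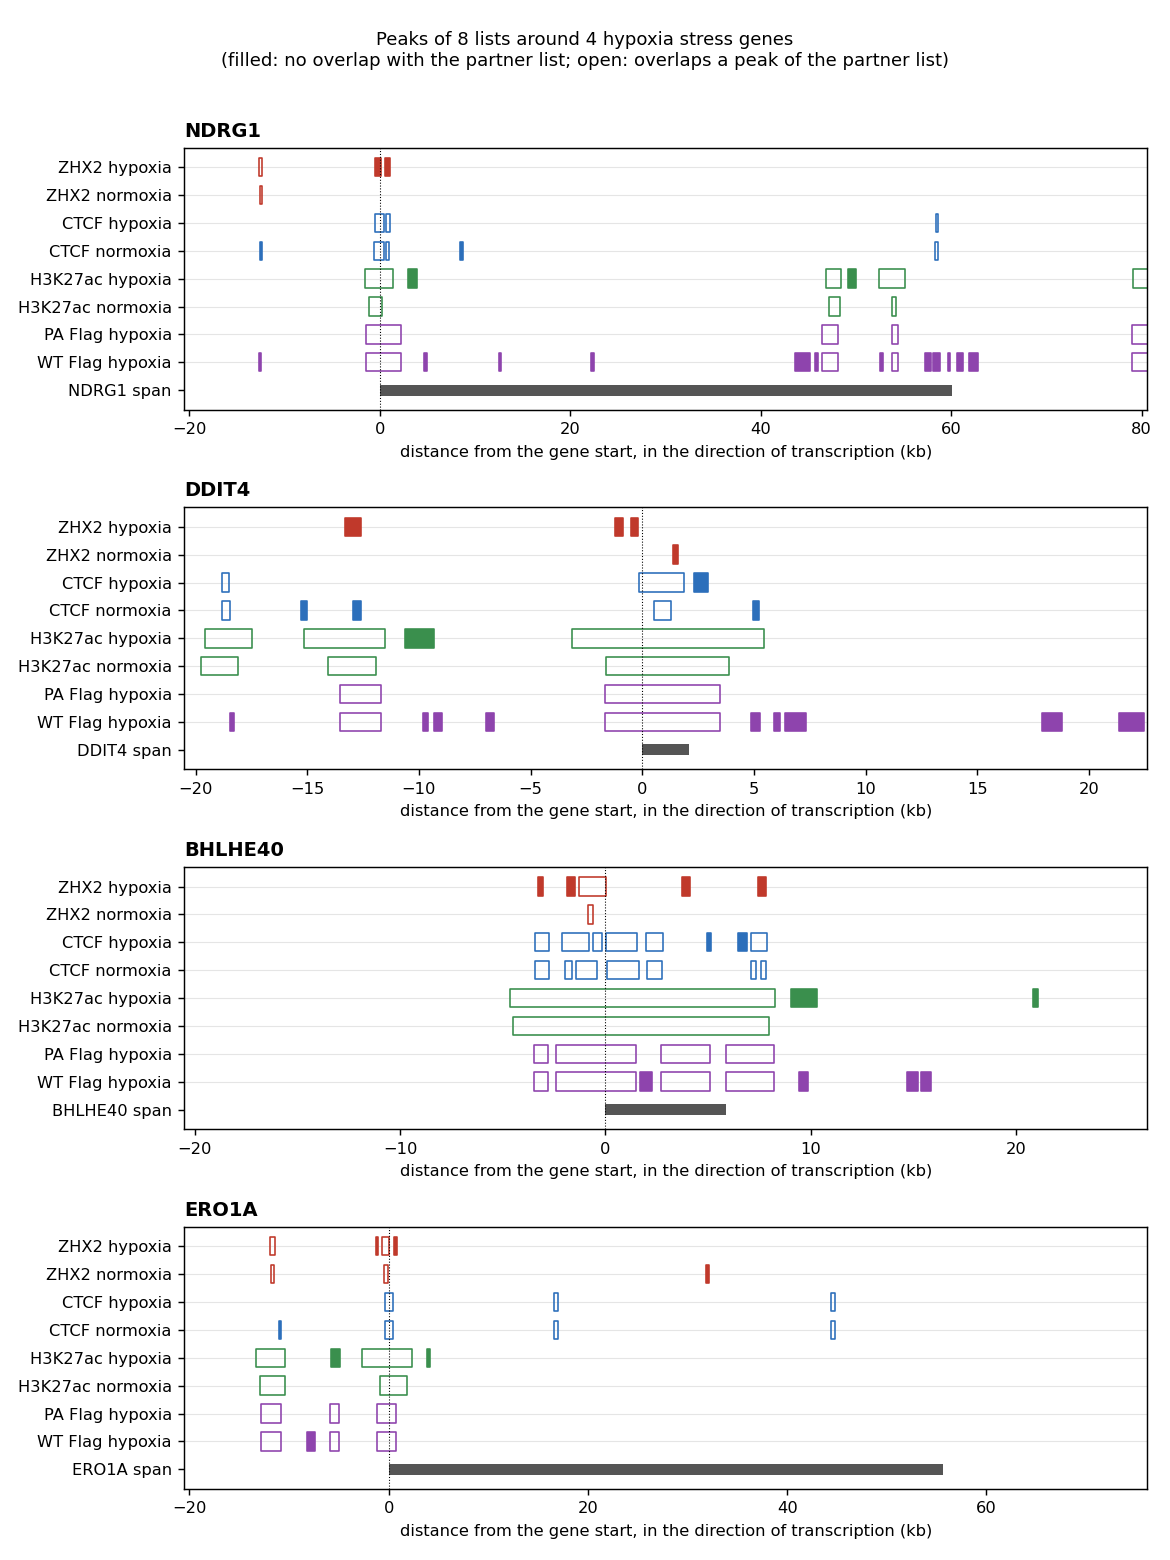
Peaks of the 8 lists around NDRG1, DDIT4, BHLHE40 and ERO1A, drawn by distance from the gene start in kb, with filled bars for peaks that overlap no peak of the partner list (hypoxia with normoxia, PA Flag with WT Flag), open bars for the others and grey bars for the gene spans. ZHX2 in hypoxia has 3, 3, 5 and 4 peaks in the 4 windows and lies at all 4 starts, and the WT Flag list has 26 filled bars where the PA Flag list has 0. Peaks crossing a window edge are cropped.

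At NDRG1, the hypoxia ZHX2 list had a peak over the start at chr8:133297084-133297730 with a fold enrichment over background of 5.65. The fold is the authors' own value and is read here only as a rank within its list, where 91.3% of the hypoxia ZHX2 peaks had a lower one. A weaker neighbour at chr8:133296190-133296662, inside the gene 0.59 kb past the start, had a fold of 3.57 and outranked 59.7% of the list. Both were hypoxia-only, and both lay on CTCF peaks found in hypoxia and normoxia. The third hypoxia peak stood 12.4 kb upstream at chr8:133309654-133309887, with a fold of 2.74 that outranked 21.7% of the hypoxia list. It overlapped the single normoxia peak of the NDRG1 window, chr8:133309625-133309846, whose fold of 3.74 outranked 66% of the normoxia list. That upstream position carried CTCF in normoxia alone, with summits of ZHX2 and CTCF 4 bp apart, a Flag peak in WT alone, and H3K27ac in neither list.

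At DDIT4, none of the 3 hypoxia ZHX2 peaks overlapped the normoxia peak. The nearest to the start, chr10:72273419-72273745, ended 179 bp in front of it and had a fold of 4.46, above 80.2% of the list. It covers the first of the GCGTG letters in the printed promoter, at 219 to 215 bases before the start, and neither the ACGTG nor the second GCGTG. Another hypoxia peak at chr10:72272690-72273059 had a fold of 3.15, above 41.7% of the list. A distal one, chr10:72260634-72261338, lay 12.6 kb upstream with a fold of 2.97, above 32.6% of the list, inside an H3K27ac peak of both conditions and a Flag peak of both ZHX2 forms. The DDIT4 peak of the normoxia list lay inside the gene span at chr10:72275289-72275544, with a fold of 4.49 that stood above 82% of the normoxia list. It begins 1365 bp past the start, outside the 1 kb start window.

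At BHLHE40, the hypoxia peak over the start was the longest ZHX2 peak of the 4 genes, at 1.34 kb. It spans chr3:4978136-4979477 and had a fold of 5.64, above 91.3% of the list. Its summit lies 228 bases before the start and 15 bp from the CACGTG letters, and the peak covers all 3 ACGTG sites of the printed promoter. The normoxia list had a 0.25 kb peak inside the same stretch, chr3:4978577-4978826, with a fold of 3.01 above 32.1% of that list, and it covers none of the 3 sites. Beyond the promoter, 4 hypoxia-only peaks lay between 3.03 kb upstream and 7.45 kb downstream of the start. The strongest of these by rank, chr3:4976140-4976405, had a fold of 4.16 above 75.3% of the list, and its summit was 90 bp from that of a CTCF peak.

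At ERO1A, the start carried a hypoxia peak at chr14:52695473-52696193 (fold 5.35, above 89.4% of the list) and a normoxia peak at chr14:52695613-52695989 (fold 3.14, above 39.6% of the list). Both start peaks cover the ACGTG and the GCGTG of the printed promoter. A pair of hypoxia-only peaks flanked the start, of which the one inside the gene at chr14:52694697-52695027 had a fold of 4.09 above 73.5% of the list and the one 1.05 kb upstream at chr14:52696606-52696814 had a fold of 2.76 above 22.8% of the list. The remaining normoxia peak, chr14:52663390-52663663, lay 31.9 kb inside the gene with a fold of 4.28 above 79.2% of the normoxia list and overlapped no peak of the other 7 lists. The ERO1A window also takes in the start of PSMC6, which encodes an ATPase subunit of the proteasome and lies on the plus strand at chr14:52707200-52728590. A hypoxia ZHX2 peak at chr14:52706993-52707423 (fold 6.50, above 94.8% of the list) and a normoxia ZHX2 peak at chr14:52707020-52707342 (fold 2.96, above 30% of the list) cover that start, with summits 18 and 12 bp from it. H3K27ac of both conditions and Flag of both forms cover it too, so these peaks lie at the promoter of PSMC6, 11.6 kb from that of ERO1A.

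**Figure D2:**
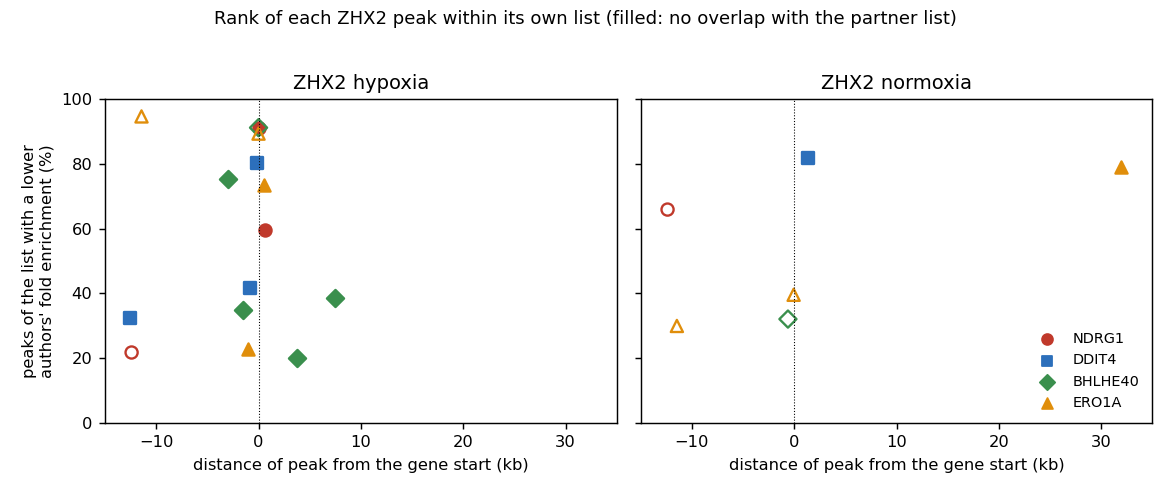
Percentage of peaks in the same ZHX2 list with a lower authors' fold enrichment, plotted against the distance from the gene start in kb for the hypoxia list (left) and the normoxia list (right), with filled symbols for peaks that overlap none of the partner list. In hypoxia the peaks over the starts of NDRG1, BHLHE40 and ERO1A lie at 91.3%, 91.3% and 89.4%, with the first pair drawn on top of each other, and the peak nearest to the DDIT4 start lies at 80.2%, while the ERO1A symbol at 94.8% is the peak at the PSMC6 start. In normoxia the start peaks of BHLHE40 and ERO1A lie at 32.1% and 39.6% of a shorter list. The normoxia symbols of NDRG1 and DDIT4 are outside the 1 kb start window, 12.4 kb upstream and 1.36 kb past the start.

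The hypoxia ZHX2 peaks of these genes lay largely inside acetylated chromatin. H3K27ac of hypoxia covered 14 of the 15, against 72.9% of the hypoxia ZHX2 list as a whole. WT Flag peaks overlapped 15 of 15 and PA Flag peaks 14 of 15, where 54.2% and 44.2% of the list overlapped them. CTCF peaks of hypoxia overlapped 7 of the 15, against 45.6% of the list. Among the 11 hypoxia-only peaks, 11 lay on H3K27ac of hypoxia and 5 on CTCF of hypoxia, with 71.1% and 39.3% in the list-wide class. The peaks crowd into few acetylated stretches and are not independent of each other, so these counts describe the 4 loci and no more.

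CTCF was present at all 4 genes in both conditions, with its strongest peaks just inside DDIT4 and around BHLHE40. The 4 windows held 17 CTCF peaks in hypoxia and 21 in normoxia, of which 3 were hypoxia-only and 6 normoxia-only. List-wide, 6.96% of hypoxia CTCF peaks were hypoxia-only and 17.7% of normoxia CTCF peaks were normoxia-only. With 10 kb on each side of the genes the totals were 16 in hypoxia and 16 in normoxia, with 3 hypoxia-only and 2 normoxia-only, so the excess in normoxia rests on the outer parts of the windows. All 4 genes had a window peak in both lists, as did 93.0% of all genes in hypoxia and 94.1% in normoxia. All 4 also had a CTCF peak within 1 kb of the start in both lists, against 54.7% and 56.6% of all genes. A hypoxia-only CTCF peak lay in the windows of DDIT4 and BHLHE40, as for 25.8% of all genes, and a normoxia-only one in those of NDRG1, DDIT4 and ERO1A, as for 48.9% of all genes. The ERO1A one lay within 1 kb of the PSMC6 start. The CTCF lists as a whole held 77334 peaks in hypoxia and 88248 in normoxia.

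BHLHE40 had 8 CTCF peaks in hypoxia and 7 in normoxia. Its strongest, inside the gene, was chr3:4979485-4981000 in hypoxia with a fold of 199, above 95% of that list, and chr3:4979524-4981089 in normoxia with a fold of 299.8, above 97.8% of that list, with summits 1.06 kb past the start in both. A second strong peak lay 2.75 kb upstream at chr3:4976000-4976691 in hypoxia (fold 126, above 86.4% of the list) and at chr3:4976029-4976670 in normoxia (fold 199, above 93.7% of the list). At the start, the ZHX2 summit of hypoxia was 14 bp from that of a weak CTCF peak, chr3:4978822-4979278, whose fold of 4.07 outranked 6.35% of the hypoxia list. Both hypoxia-only CTCF peaks of this gene, 4.93 and 6.47 kb past the start, were low in their list, above 4.71% and 15.7% of it.

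DDIT4 carried a CTCF peak from its start to within the gene, chr10:72273772-72275785 in hypoxia, with a fold of 125 above 86.2% of the list. The normoxia peak at that place was chr10:72274473-72275209, with a fold of 106 above 83% of the list, and the summits lay 0.997 kb past the start in hypoxia and 0.998 kb past it in normoxia. The 2.01 kb hypoxia peak reaches the promoter and covers the ACGTG, the second GCGTG and both CCAAT sites printed above, which the 0.737 kb normoxia peak does not. No hypoxia ZHX2 peak of DDIT4 overlapped a CTCF peak of hypoxia, and the nearest pair of summits was 1373 bp apart. Of the 3 normoxia-only CTCF peaks, chr10:72260982-72261315 (fold 7.85, above 26.6% of the list) lay inside the distal hypoxia-only ZHX2 peak, so that this upstream position was listed for ZHX2 in hypoxia and for CTCF in normoxia. At NDRG1, the counterpart 12.4 kb upstream had ZHX2 in both conditions and CTCF in normoxia alone.

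The CTCF peaks over the starts of NDRG1 and ERO1A stood lower in their lists. NDRG1 had chr8:133296839-133297771 in hypoxia with a fold of 10.4, above 37.3% of the list, and chr8:133296788-133297807 in normoxia with a fold of 20.8, above 51.8% of the list. ERO1A had chr14:52695167-52695927 in hypoxia with a fold of 6.78, above 24.8% of the list, and chr14:52695126-52695953 in normoxia with a fold of 24.7, above 55.1% of the list. Folds of separate lists carry separate backgrounds and lengths and are given side by side without a direction. ERO1A had further CTCF peaks at 16.6 and 44.4 kb inside the gene in both conditions, outside H3K27ac, ZHX2 and Flag peaks. ZHX2 and CTCF summits of hypoxia were 206 bp apart at the ERO1A start, and 279 and 54 bp apart at the peaks over and just inside the NDRG1 start.

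**Figure D3:**
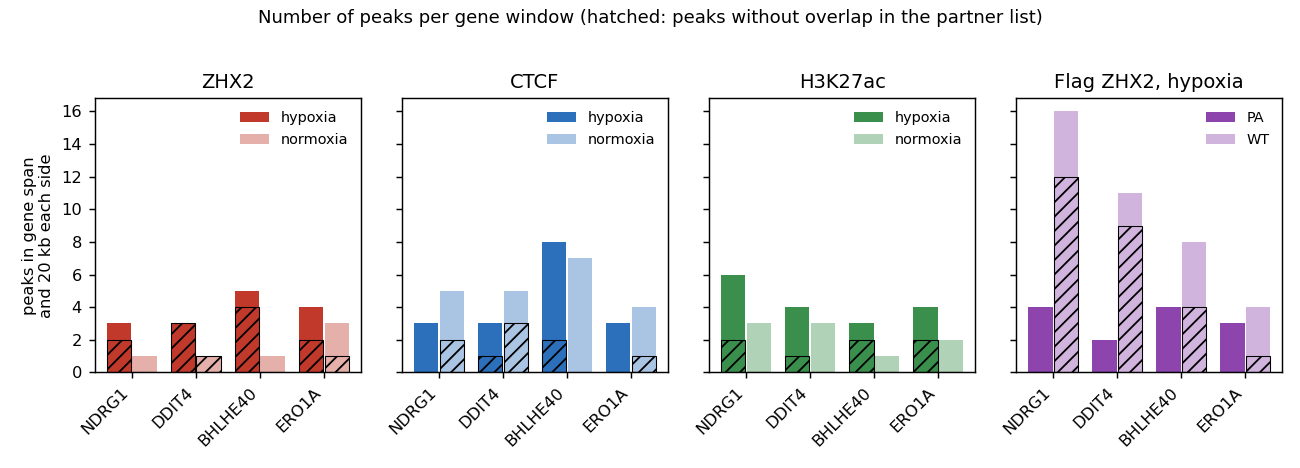
Number of peaks per gene window for ZHX2, CTCF and H3K27ac in hypoxia (dark) and normoxia (light) and for Flag in PA (dark) and WT (light), with the hatched part for peaks that overlap none of the partner list. ZHX2 sums to 15 in hypoxia and 6 in normoxia, CTCF to 17 and 21, H3K27ac to 17 and 9, and Flag to 13 in PA and 39 in WT, and the windows differ in length between genes.

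Acetylated stretches were longer in the hypoxia list at all 4 genes, by the highest ratio at NDRG1 and the lowest at BHLHE40. The H3K27ac peak over the NDRG1 start measured 2.87 kb in hypoxia and 1.37 kb in normoxia, a ratio of 2.09 that was above that of 97.9% of genes with a start peak in both lists. At ERO1A the start peak measured 4.94 kb in hypoxia and 2.70 kb in normoxia, a ratio of 1.83 above 97% of genes. The DDIT4 start peak measured 8.62 kb in hypoxia and 5.53 kb in normoxia, a ratio of 1.56 above 94.7% of genes. At BHLHE40 the widths were 12.9 kb in hypoxia and 12.5 kb in normoxia, a ratio of 1.04 above 43.5% of genes. The median ratio over all such genes was 1.06, and 69.2% of them had the wider peak in hypoxia, so the direction at the 4 genes is the common one while the sizes at NDRG1, ERO1A and DDIT4 lie in the upper tail.

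Over the whole windows, H3K27ac covered 10 kb of NDRG1 in hypoxia and 2.96 kb in normoxia, a ratio of 3.37 above 99.5% of genes with H3K27ac in both lists. The hypoxia length includes the end of a peak inside CCN4, without which NDRG1 had 9.06 kb in hypoxia and 2.96 kb in normoxia. It covered 8.99 kb of ERO1A in hypoxia and 5.16 kb in normoxia, a ratio of 1.74 above 96.4% of genes. Without the peak at the PSMC6 start ERO1A had 6.11 kb in hypoxia and 2.70 kb in normoxia. DDIT4 had 15.7 kb in hypoxia and 9.33 kb in normoxia, a ratio of 1.68 above 95.7% of genes. For BHLHE40 the lengths were 14.4 kb in hypoxia and 12.5 kb in normoxia, with a ratio of 1.15 above 65.7% of genes. The median ratio was 1.08, and 68.9% of genes with H3K27ac in either list had more of the window covered in hypoxia. Width depends on where the caller ends a peak and hence on depth and threshold, neither of which is known per sample, and their part in these ratios was not tested.

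**Figure D4:**
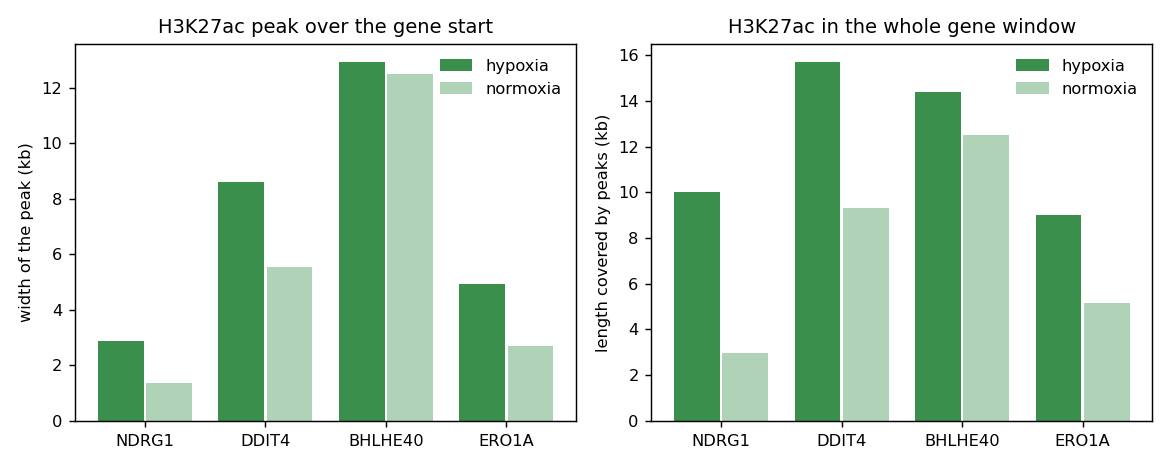
Width of the H3K27ac peak over the gene start (left) and length of the gene window covered by H3K27ac peaks (right), both in kb, from 1 peak list each in hypoxia (dark) and normoxia (light), without error bars because no replicate values were given. The hypoxia bar is the taller at each gene, from a width ratio of 2.09 at NDRG1 to 1.04 at BHLHE40.

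By number, the windows held 17 H3K27ac peaks in hypoxia and 9 in normoxia, from lists of 46713 and 42586 peaks. In the upper 50% of each list by score the counts were 10 in hypoxia and 8 in normoxia, so most of the excess in hypoxia lies among low-scoring peaks. All 4 genes had one in the window and at the start in both lists, where 82.4% of all genes in hypoxia and 81.3% in normoxia had a window peak, and 64.1% in hypoxia and 63.4% in normoxia a start peak. There were 7 hypoxia-only peaks, spread over all 4 windows, and 34.4% of all genes held at least 1. There were 0 normoxia-only peaks, a class present in the windows of 17.3% of all genes. Hypoxia-only peaks made up 19.4% of the whole hypoxia H3K27ac list, and normoxia-only peaks 10.9% of the whole normoxia list. The 7 hypoxia-only peaks were short, from 228 to 1326 bp, and 0 of them overlapped a ZHX2 or CTCF peak of either condition. Over all hypoxia-only H3K27ac peaks, 5.66% overlapped ZHX2 of hypoxia, 2.07% ZHX2 of normoxia, 18.5% CTCF of hypoxia and 17.5% CTCF of normoxia, so such overlaps were uncommon list-wide. In NDRG1, both hypoxia-only peaks lay inside the gene, and the shared peak that begins 52.5 kb past the start measured 2.71 kb in hypoxia and 0.433 kb in normoxia. The BHLHE40 start peak ranked highest of all at the 4 genes, with a fold of 45 above 99.98% of the list in hypoxia and a fold of 31.4 above 99.4% of the list in normoxia.

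Flag-tagged ZHX2 was listed at all 4 promoters in both forms. The windows of NDRG1 and DDIT4 held many peaks found with WT alone, mostly inside the gene at NDRG1 and in the flanks at DDIT4. A peak within 1 kb of the start was present at 4 of 4 genes in PA and 4 of 4 in WT, against 50.3% and 58.6% of all genes. A start peak in 1 form alone was present at 0 of the 4 genes, against 0.468% of all genes in PA alone and 8.71% in WT alone. All 4 windows held Flag peaks of both forms, as did 68.1% of all genes in PA and 76.9% in WT. The windows held 4 PA and 16 WT peaks at NDRG1, 2 PA and 11 WT peaks at DDIT4, 4 PA and 8 WT peaks at BHLHE40, and 3 PA and 4 WT peaks at ERO1A. WT-only peaks numbered 12, 9, 4 and 1 in that order of genes, and 50.0% of all genes held at least 1. PA-only peaks numbered 0, a class present at 5.69% of all genes and making up 5.34% of the whole PA list.

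WT Flag density reached 26.1 peaks per 100 kb at DDIT4, 17.4 at BHLHE40 and 16 at NDRG1, above 99.6%, 98.1% and 97.5% of all genes. ERO1A had 4.18 WT peaks per 100 kb, above 71.9% of genes. The PA densities were 8.72 at BHLHE40, 4.75 at DDIT4, 4 at NDRG1 and 3.14 at ERO1A, above 97.3%, 89.2%, 84% and 78.4% of genes. The medians over all genes were 1.3 in PA and 1.98 in WT. With peaks within 500 bp merged, the 4 windows held 31 WT peaks in place of 39 and 12 PA peaks in place of 13. The density ranks use unmerged peaks and set windows of unlike length against each other, and the part of both in the ranks was not tested. Fewer peaks in the PA list is not particular to these genes, since that list holds 16019 peaks and the WT list 31278, and 51.5% of the whole WT list was WT-only. How the list lengths arose was not tested.

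The Flag lists give positions without heights. All 13 PA peaks at the 4 genes had the very coordinates of a WT peak, and so did 15163 of the 16019 PA peaks of the whole list, so widths cannot be compared between the forms. The Flag peaks common to both forms were wide, with a median of 2005 bp and a range of 670 to 5170 bp, and the widest covers the DDIT4 gene at chr10:72272248-72277417. Those of WT alone had a median of 440 bp and a range of 200 to 1608 bp. Of the 13 common WT peaks, 10 overlapped endogenous ZHX2 of hypoxia and 13 overlapped H3K27ac of hypoxia, against 69.5% and 86.1% of common peaks over the whole list. Of the 26 WT-only peaks, 1 overlapped endogenous ZHX2 and 7 overlapped H3K27ac, against 21.8% and 59.4% list-wide. The WT-only peak with endogenous ZHX2 was the one 12.4 kb upstream of NDRG1.

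Over all 8 lists, the presence of start peaks fell into 2 patterns. NDRG1 and DDIT4 had a start peak in every list but normoxia ZHX2, a pattern shared by 2484 of 15814 genes (15.7%). BHLHE40 and ERO1A had one in all 8 lists, like 2708 genes (17.1%). Neither pattern is rare. The pattern of DDIT4 depends on the 1 kb limit, since its normoxia ZHX2 peak begins 1365 bp past the start.

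Related genes are to be read against all genes, of which 55.3% had a ZHX2 start peak in hypoxia, 27.4% in normoxia and 29.6% in hypoxia alone, and luminal markers, of which 7 of 8 had one in hypoxia and 3 of 8 in normoxia, with 4 in hypoxia alone. More start peaks in the hypoxia list is thus not particular to the related groups. Of the mTORC1 control genes around DDIT4, 8 of 10 with a known start had a ZHX2 start peak in hypoxia and 4 of 10 in normoxia. In hypoxia alone there were 4 of 10, TXNIP with a fold of 6.33 above 94.2% of the list, and MTOR, TSC2 and SESN1 above 61%, 36.9% and 22.8% of it. TSC2 forms the complex through which DDIT4 acts, and TXNIP is a binder of thioredoxin that also limits glucose uptake. Of the circadian clock genes around BHLHE40, 9 of 13 had a ZHX2 start peak in hypoxia and 4 of 13 in normoxia. BHLHE41, the closest relative of BHLHE40, was among 5 of 13 in hypoxia alone, with a fold of 4.54 above 81.1% of the list. The others were DBP, PER3, CRY1 and CIART, above 80.9%, 62.9%, 27.9% and 2.00% of the list.

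Of the oxidative folding genes around ERO1A, 6 of 8 had a ZHX2 start peak in hypoxia and 2 of 8 in normoxia. The hypoxia list alone had them at 4 of 8, namely ERO1B, the second ERO1 oxidase (fold 4.38, above 78.8% of the list), the sulfhydryl oxidase QSOX1 (fold 5.75, above 91.9% of the list), PRDX4 (above 72.3%) and GPX8 (above 20.4%). ERO1B and QSOX1 also had a Flag start peak in WT and none in PA, as did 8.71% of all genes, and ERO1A had both. A Flag start peak in WT alone was also found for SESN2 (1 of 10 mTORC1 control genes) and BMAL1 (1 of 13 clock genes). BNIP3 and CA9 had one among the other hypoxia-induced genes (2 of 25). In the NDRG family, 0 of 2 genes had a ZHX2 start peak in either condition. Among other hypoxia-induced genes, 20 of 25 had one in hypoxia and 7 of 25 in normoxia, with 14 in hypoxia alone and RORA in normoxia alone, where 29.6% and 1.64% of all genes fell in those classes.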

How the data were processed

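ChIP-seq of 28 T47D samples was used as 1 peak list for each of 8 groups of 2 samples. The 12 samples with no antibody, of which 4 are titled Flag, were not analysed here. Per the submitters' processing notes, the authors used cutadapt, Bowtie2 and MACS2 with GRCh38 (hg38), without versions. ZHX2 and CTCF lists are narrow peaks, H3K27ac lists broad peaks and Flag lists positions alone. Each peak's score, fold (a ratio over background) and −log10 q-value were deposited by the authors and taken as they stand. The sources used here give neither read numbers nor any pooling of replicates, which leaves each peak's precision unknown. Peak numbers are not compared between antibodies, since the smallest −log10 q-value kept was 1.3 for ZHX2 in hypoxia and in normoxia, 5.09 and 5 for CTCF, and 3.47 and 3.49 for H3K27ac.

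Peaks were matched to genes by an overlap of at least 1 bp in Python 3.11.15. Gene spans came from a RefSeq table of GRCh38.p14, in which entries on alternate scaffolds were not separated out. The gene start was taken as the end of the span at which transcription begins, given the strand. Strands came from a RefSeq promoter table, and that of NDRG1 from general knowledge. A start was thus known for 15814 of 19974 genes. Exon annotation was not used here. The ranks are percentages of the list with a lower fold (width for Flag). The 4 genes and the related lists were chosen with earlier results of these data known. The rule for naming gave, per gene and list, the number of peaks, the peak nearest to the start and the highest-ranked peak, and for related genes those with a start peak in 1 list of a pair alone. Related genes with such a start peak for CTCF or H3K27ac were found too and are not named here. The 14 other hypoxia-induced genes with ZHX2 in hypoxia alone are given as a count. Further peaks of the 4 genes were named after their values were seen. No test was made, for lack of replicate values. The steps were tested on simulated data. Alternatives were windows of 10 kb or of the start alone, merged peaks, the upper 50% of a list by score, another overlap, all annotated genes as background and, added after seeing the data, leaving out peaks within 1 kb of other protein-coding genes in the windows.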

Additional observations from a re-analysis of the deposited data

How the results depend on the processing

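Of 92 alternative values, 77 stayed within 1.5 times the value reported (for shares of all genes, within its 95% Wilson interval) and 15 moved. In the upper 50% of each list by score, the 4 windows held 9 of 15 ZHX2 peaks in hypoxia and 5 of 6 in normoxia, 5 of 17 CTCF peaks in hypoxia and 8 of 21 in normoxia, and 10 of 17 H3K27ac peaks in hypoxia and 8 of 9 in normoxia. The Flag lists have no score. With peaks within 500 bp merged, CTCF numbered 11 in hypoxia and 17 in normoxia, and ZHX2 10 in hypoxia and 6 in normoxia. At the gene start alone, 2 genes and not 4 had a ZHX2 peak in normoxia. With 10 kb on each side, CTCF peaks numbered 16 in both conditions, with 3 hypoxia-only and 2 normoxia-only. Leaving out peaks within 1 kb of CCN4, GPR137C or PSMC6, a choice made after seeing the data, moved no count by over 1.5 times. Taking all annotated genes as background lowered the window shares to between 34.0% (ZHX2 normoxia) and 81.9% (CTCF normoxia). No paired analysis was possible because each group had 1 list and no values per replicate, and leaving out a replicate was not possible for the same reason. With read depth unknown, a missing peak does not show that the protein was absent.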

Other observations

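DDIT4 and BHLHE40 each share their promoter with an antisense gene. DDIT4-AS1 starts 213 bp from the DDIT4 start and runs the other way, and its start base lies inside the hypoxia-only ZHX2 peak nearest to DDIT4, outside CTCF peaks of both conditions, and inside H3K27ac of both conditions and Flag of both forms. BHLHE40-AS1 starts 524 bp from the BHLHE40 start, inside the BHLHE40 span. Its start base lies in the strong CTCF peak of hypoxia and of normoxia, and outside ZHX2 peaks of both conditions. At these distances a peak cannot be assigned to 1 gene of the pair.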
